A study of Homo sapiens with 2 samples.

Results

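The mitochondrial carrier family (SLC25) was examined in the established fibrosarcoma line HT1080, of human origin. Members were the probe sets whose single gene symbol is SLC25A followed by a number, UCP1, UCP2, UCP3, MTCH1 or MTCH2. RefSeq lists 53 such genes. The platform annotation used here gave 4 of them a named probe set, of 14884 named genes in all: SLC25A15, SLC25A2, MTCH1 and MTCH2. The other 49 are not analysed here. They include every gene of the ADP/ATP, phosphate, uncoupling, dicarboxylate and cofactor carriers, so the values below do not stand for the family. One Affymetrix Human Gene 2.0 ST array held RNA of cells that received, by viral infection, a short hairpin RNA (shRNA) against cMyc, and the other RNA of cells that received a non-targeting control shRNA in the same way. Cells were harvested 48 hours after infection. There was 1 array for each condition, so no difference has a replicate check and no test was possible.

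SLC25 proteins sit in mitochondrial membranes. Most carry metabolites such as nucleotides, amino acids and organic acids across the inner membrane, which is otherwise closed to them, and so join mitochondrial to cytosolic metabolism. SLC25A15 and SLC25A2 are the ornithine carriers, which exchange ornithine and citrulline for the urea cycle. Inherited loss of SLC25A15 causes a syndrome of high ornithine and ammonia. SLC25A2 is a closely similar, intronless relative of SLC25A15. MTCH1 and MTCH2 are divergent members placed in the outer membrane. MTCH2 inserts proteins with a membrane anchor at their tail into that membrane and is the docking site of the apoptosis protein BID. MTCH1 is the related protein, first described as a partner of presenilin.

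MYC binds the E-box, the letters CACGTG, so the 300 bases around each start site, 250 before and 50 after it, were read from RefSeq (GRCh38.p14). A window was found for SLC25A15, MTCH1 and MTCH2, with 3 start sites for MTCH1. The E-box, whose letters read the same on both strands, lay in 1 of the 3 MTCH1 windows (chr6:36986147-36986446, minus strand) and in the MTCH2 window (chr11:47642510-47642809, minus strand). These 2 are shown because they hold the motif of the factor that the shRNA targets, with the E-box in capitals.
MTCH1: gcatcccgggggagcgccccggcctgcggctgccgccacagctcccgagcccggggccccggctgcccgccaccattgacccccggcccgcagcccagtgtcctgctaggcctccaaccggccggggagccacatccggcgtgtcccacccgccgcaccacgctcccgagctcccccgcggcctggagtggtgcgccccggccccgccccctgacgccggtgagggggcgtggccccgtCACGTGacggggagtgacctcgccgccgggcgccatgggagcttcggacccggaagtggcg
MTCH2: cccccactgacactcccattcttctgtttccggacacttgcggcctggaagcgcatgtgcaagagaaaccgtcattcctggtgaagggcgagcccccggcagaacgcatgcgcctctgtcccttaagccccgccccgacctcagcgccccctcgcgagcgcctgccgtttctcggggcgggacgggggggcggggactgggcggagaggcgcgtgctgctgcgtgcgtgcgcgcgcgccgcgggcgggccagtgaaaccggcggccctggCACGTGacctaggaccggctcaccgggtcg
The E-box begins 11 bases before the start site in MTCH1 (position -11) and at position 21, counted from the start site as 1, in MTCH2. The SLC25A15 window (chr13:40789361-40789660, plus strand) and the other MTCH1 windows have no E-box. Of all 35116 RefSeq windows of this length 7.26% hold one. Of the 7900 measured genes with a window, 961 (12.2%) held an E-box in at least 1. Those 961 had a median log2 difference of -0.05 and the 6939 without one of -0.01. The ETS motif CCGGAAGT, read on both strands, was in the same MTCH1 window as the E-box, from position 39 and apart from it, and in 4.14% of all windows. Of the measured genes with a window 9.14% held the ETS motif in at least 1. A match is a run of letters and not a measured binding site.

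The label of the targeted gene was checked first. MYC read 6.16 on the cMyc shRNA array and 7.09 on the control array, a log2 difference of -0.93, or 1.91-fold lower. This went the way of the label but was short of 2-fold, and it has no replicate check. Both arrays held 53617 probe sets, with medians of 3.73 on the cMyc shRNA array and 3.68 on the control array. A gene counted as measured when its mean over both arrays was at least 3.70, the median of all probe sets, which left 10258 named genes. All 4 members passed, and so did MYC. Of the measured genes 4.7% had a lower difference than MYC. Among those nearest to MYC in level the robust SD of the differences was 0.48, and MYC lay inside 3 of these SDs. Where 2 probe sets of 1 gene were measured, in 416 genes, the SD of a single log2 difference was 0.34. It is called the technical SD below and holds no variation between cultures. Probe sets that share a symbol need not read the same RNA, so it can hold such differences besides measurement error. Of 13 named mesenchymal markers 12 were measured, where 10258 of all 14884 named genes were. VIM read 9.34 on the cMyc shRNA array and 9.94 on the control array on its brightest probe set. Its other probe sets had log2 differences of -1.02 and -0.95, against -0.59 on the brightest. Of the named markers of other types, 4 of 8 epithelial, 1 of 3 haematopoietic and 3 of 7 endothelial and muscle ones were measured. The haematopoietic marker CD68 read 11.34 on the cMyc shRNA array and 10.43 on the control array. The epithelial marker EPCAM read 3.07 and 2.73, and the endothelial marker PECAM1 2.99 and 2.82, on the cMyc shRNA and control arrays, all below the level filter. KRT18, an epithelial keratin, was above it, on its brighter probe set, at 8.41 on the cMyc shRNA array and 9.09 on the control array. Its other probe set went the other way, at 6.23 on the cMyc shRNA array and 6.12 on the control array.

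None of the 4 members differed by 2-fold. By that rule 2.01% of all measured genes were higher on the cMyc shRNA array and 4% lower, so 94% lay within 2-fold as the members did. The members' median log2 difference was -0.06 and that of all measured genes -0.01. Individually, SLC25A15, MTCH1 and MTCH2 lay between -0.18 and -0.01, and SLC25A2 lay apart at 0.81. A rule of 1.5-fold took 1 member as higher and 0 as lower, where 8.77% of measured genes were higher and 11.9% lower by that rule. In these bulk samples fewer expressing cells and less RNA per cell cannot be told apart.

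**Figure D1:**
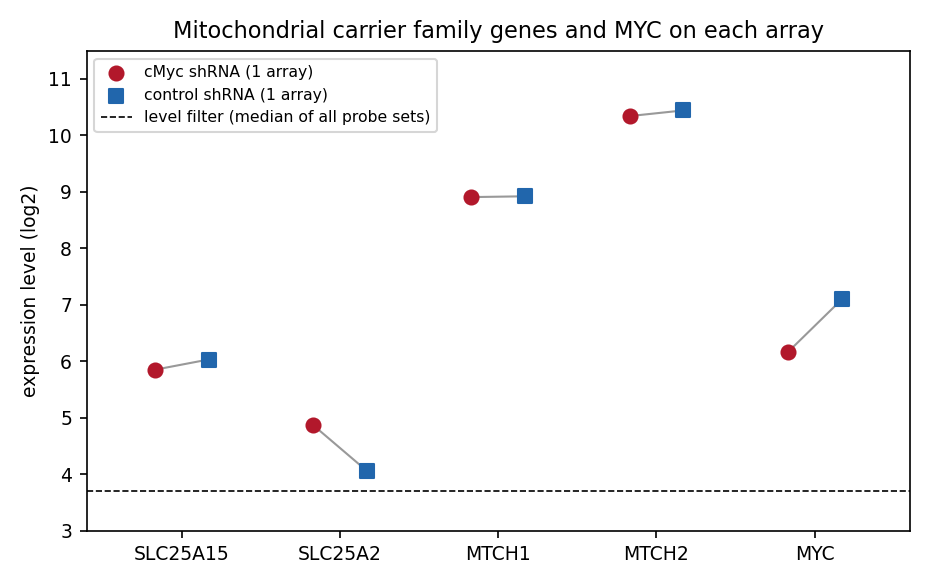
Expression level (log2, vertical axis) of the 4 members and MYC on the cMyc shRNA array (circles, left of each pair) and the control shRNA array (squares), with the level filter of 3.70 as a dashed line. There are no error bars because each condition is 1 array. SLC25A15, MTCH1 and MTCH2 are nearly level between arrays, SLC25A2 is higher on the cMyc shRNA array and MYC lower. Heights of different genes are read by different probes and are not to be compared.

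SLC25A15, the main ornithine carrier, read 5.85 on the cMyc shRNA array and 6.03 on the control array (probe set 16774235). Its log2 difference was -0.18, or 1.13-fold lower, inside the technical SD of 0.34. In size, 33.5% of all measured genes had a smaller difference.

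SLC25A2, the other ornithine carrier, read 4.87 on the cMyc shRNA array and 4.06 on the control array (probe set 17000850). This was the member with the largest difference, at 0.81 or 1.76-fold higher, and the only one above 0 as deposited. Of all measured genes 399 had a higher difference and 96.1% a lower one. The cMyc shRNA value was 1.17 above the level filter and the control value 0.36 above it. No detection call is available, so whether the gene was detected on the control array is unknown. Where the dimmer of a gene's 2 probe sets was below 5 on the log2 scale, in 201 genes, the SD of a single difference was 0.40, against which 0.81 is the larger. That SD pools the brighter and the dimmer probe set, so it can understate the SD of a dim one. Among the 500 measured genes nearest to SLC25A2 in level the robust SD was 0.34, and the gene lay inside 3 of these SDs.

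The ornithine carriers lay on opposite sides of 0, SLC25A15 within the technical SD of it. SLC25A2 minus SLC25A15 was 0.99 between their log2 differences, where 0.48 is the technical SD of such a gap. That 0.48 takes the SD of 0.34 for both genes. At low levels such as that of SLC25A2 the SD was 0.40, so 0.48 can be too small here. Each gene was read by 1 named probe set. The probe sequences were not used here, and whether either probe set also reads RNA of the similar gene was not tested.

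MTCH1, the outer membrane relative of MTCH2, read 8.91 on the cMyc shRNA array and 8.92 on the control array (probe set 17018693). Its log2 difference was -0.01, and 3.07% of measured genes had a difference closer to 0. Its sign was not settled, since quantile normalization gave 0.02 and loess 0.03.

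MTCH2, the outer membrane insertase, read 10.34 on the cMyc shRNA array and 10.44 on the control array (probe set 16738119). The log2 difference was -0.10, or 1.07-fold lower, and 19.2% of measured genes had a smaller one. MTCH2 and MTCH1 differed from each other by 0.09 in their log2 differences (MTCH2 the lower), inside the technical SD of 0.48 for such a gap.

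**Figure D2:**
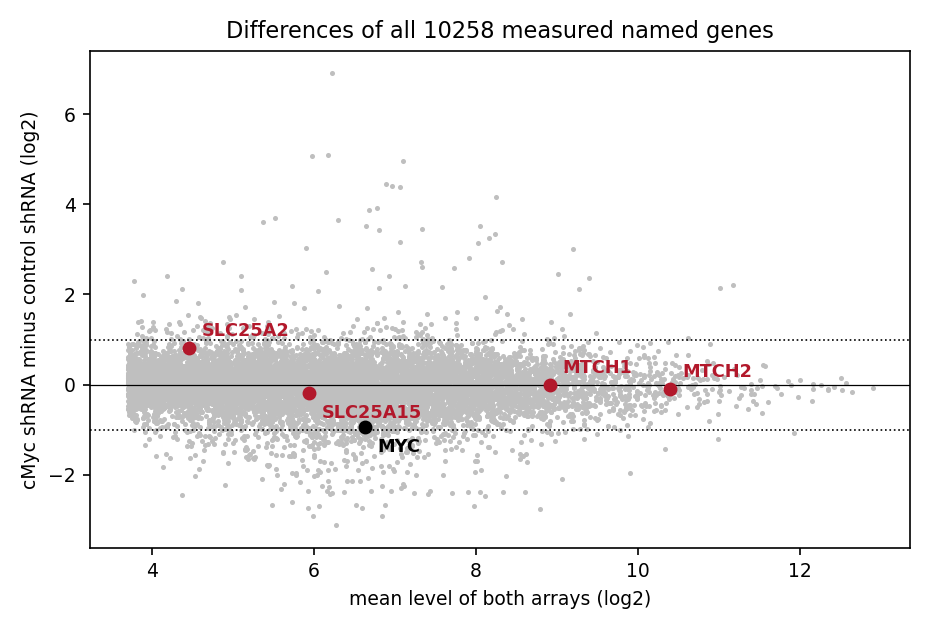
Log2 difference of the cMyc shRNA array minus the control array (vertical axis) against the mean level of both arrays (log2, horizontal axis) for the 10258 measured named genes, in grey. The 4 members are red, MYC is black, and dotted lines mark 2-fold. All 4 members lie between the dotted lines, and SLC25A2 is the member nearest to one.

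Carriers of the inner membrane, such as SLC25A15, are made in the cytosol and need the translocases of both membranes to reach their place. The list of this import and insertion pathway had 15 measured genes of 16. Its median log2 difference was -0.45, or 1.36-fold lower, with 13 genes below 0. Of all 10258 measured genes 5265 lay below 0, the share to set beside this count and those of the lists below. By the 2-fold rule 2 genes of the import list were lower and 0 higher. The share of all measured genes at least 2-fold lower was 4%. TIMM9, a chaperone that guides carriers between the membranes, read 5.98 on the cMyc shRNA array and 7.18 on the control array, 2.31-fold lower. TOMM40, the outer membrane pore, was 2.14-fold lower on its brighter probe set and had a log2 difference of -0.98 on the other. TIMM10B lay farthest the other way, at 0.09. The carrier receptor TOMM70 had -0.52 and TIMM22, the channel of the carrier translocase, -0.45.

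Mitochondrial transport genes outside the family were set beside them. All 5 pyruvate carrier and anion channel genes were measured, 4 of them below 0 and none past 2-fold, with a median of -0.24. MPC2 (-0.73) and VDAC1 (-0.60) were lowest, and MPC1, the partner of MPC2 in the pyruvate carrier, lay the other way at 0.57.

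Genes around ornithine and the urea cycle were described from a list chosen after seeing which members were named. Not all of them are enzymes, and many do not act on ornithine itself. It had 11 measured genes of 18 and a median of -0.28, and by the 2-fold rule 1 gene was lower and 0 higher. SRM, spermidine synthase, was 2.32-fold lower. ODC1, which turns ornithine into putrescine, was 1.75-fold lower, and OAT, the mitochondrial ornithine aminotransferase, had a log2 difference of -0.31. ASS1, a urea cycle enzyme that acts on citrulline, lay farthest the other way at 0.55. OTC, the urea cycle enzyme that uses the ornithine brought in by SLC25A15, read 2.49 on the cMyc shRNA array and 2.53 on the control array, below the level filter on both.

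Tail-anchored proteins of the outer membrane, the class that MTCH2 inserts, were listed in the same way. Of 19 listed genes 18 were measured, 10 below 0 and 8 above, with none past 2-fold and a median of -0.09. That division is near that of all measured genes, 5265 below 0 and 4977 above. TOMM22 was lowest at -0.55, and MCL1, an apoptosis inhibitor, highest at 0.81. The pore-forming apoptosis proteins BAX (-0.23) and BAK1 (-0.41) lay below 0. BID, the protein that docks on MTCH2, read 6.62 on the cMyc shRNA array and 6.94 on the control array, a log2 difference of -0.32. MTCH2 at -0.10 lay close to the median of this list, and both lay close to that of all measured genes, -0.01. TOMM5, TOMM6, TOMM7 and TOMM22 are also in the import list.

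**Figure D3:**
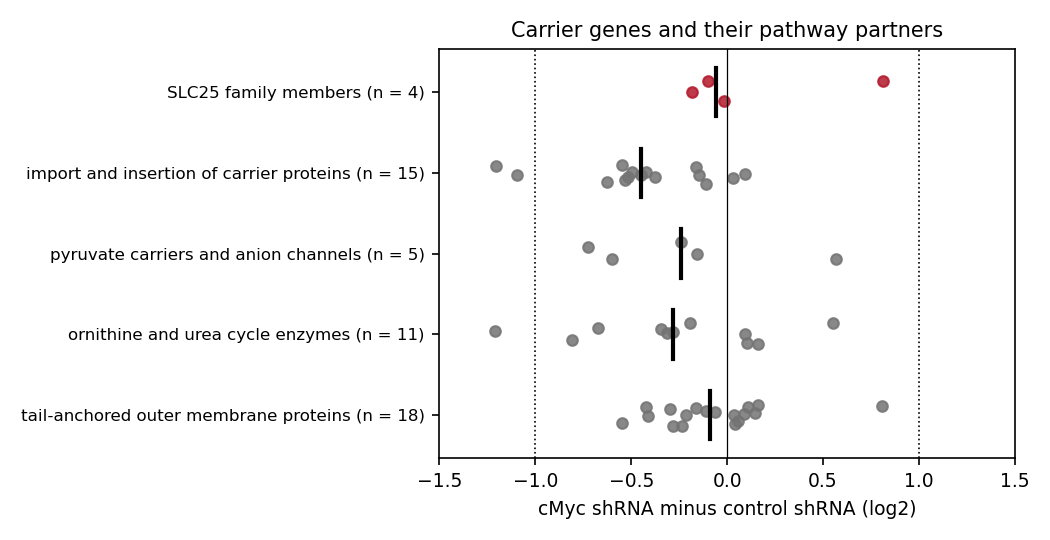
Log2 differences of the cMyc shRNA array minus the control array (horizontal axis) for the measured genes of the carrier family (red) and of 4 lists of partners (grey), 1 point a gene. Bars mark medians, dotted lines 2-fold, and vertical scatter within a row is only for visibility. The import list has the lowest median, -0.45, and the family median is -0.06. TOMM5, TOMM6, TOMM7 and TOMM22 appear in both the import and the tail-anchored rows.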

How the data were processed

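The authors deposited 1 log2 level per probe set and array (53617 probe sets, lowest 1.41, highest 13.9). Base 2 was inferred from these limits, and all folds rest on it. Affymetrix Expression Console made them, per the submitters' processing notes; its version and its normalization and summarization steps were not given in the sources used here. Column medians lay close (3.73 and 3.68), and no detection calls or intensities were used. Precision is limited by having 2 arrays.

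The platform annotation gave 1 symbol for each of 16098 probe sets, several for 0 and none for 37519. The probe set with the highest mean stood for a gene. Differences are cMyc shRNA minus control shRNA. The rule for named genes took every member, MYC, and from each pathway list fixed with the design the 2 measured genes farthest in the direction of its median and the 1 farthest the other way. TOMM70, TIMM22, the cell type markers and the genes of the ornithine and tail-anchored lists were named after their values were seen. The members and lists were chosen with earlier results of these data known. Calculations used statsmodels 0.14.6 and pandas 2.3.3 under Python 3.11.15, and were tested on simulated data. A set of 8 alternatives was tried, and 1 more was added after seeing the data.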

Additional observations from a re-analysis of the deposited data

How the results depend on the processing

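The alternatives were centring, quantile normalization, loess, no level filter, a filter at the 75th percentile, the mean over probe sets, and rules of 1.5-fold or 3 local robust SDs. The count of members at least 2-fold lower was 0 under all of them. The count higher was 0 except at 1.5-fold, where it was 1 (SLC25A2) by construction. The members' median ran from -0.10 to -0.01, and was -0.10 without SLC25A2, a choice made after seeing the data. SLC25A2 ran from 0.77 to 0.81, SLC25A15 from -0.23 to -0.13, MTCH2 from -0.15 to -0.05 and MYC from -0.98 to -0.87. Only centring, quantile normalization and loess could move a member value, because each member had 1 named probe set and the filters leave values unchanged. All 23 member values, those fixed by construction among them, moved by less than 0.34. The 2 changes of sign were those of MTCH1. The 75th percentile filter (5.58) left out SLC25A2. No paired analysis was possible because each condition is 1 array, and no replicate could be left out.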

Other observations

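Genes that use what the carriers move were described from the other lists, as counts of measured genes with a median log2 difference. The citrate cycle and malate-aspartate list had 10 measured genes of 24, 0 past 2-fold and a median of -0.14, with IDH3A (-0.52) and ACLY (-0.50), which splits exported citrate, lowest and DLD (0.34) highest. Oxidative phosphorylation had 12 of 31 and -0.19, with UQCRC2 (-0.54) and UQCRH (-0.33) lowest, while COX7C, a subunit of cytochrome oxidase, was 2.58-fold higher. The carnitine and fatty acid oxidation list had 9 of 19, none past 2-fold, and -0.02, with CPT1A (-0.79) and HADH (-0.61) lowest. CPT2 was highest at 0.71 on its brighter probe set, with -0.18 on the other. Haem and iron-sulphur synthesis had 17 of 26, none past 2-fold, and -0.09, with BOLA3 (-0.81), LYRM4 (-0.70) and ISCU (0.70) farthest out.

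The one-carbon and cofactor list had 7 of 15 and 0.08, with MTHFD2L (0.66) and MTFMT (0.35) highest, while SHMT2, the mitochondrial serine hydroxymethyltransferase, was 2.00-fold lower. Regulators of mitochondrial gene expression had 4 of 12, all below 0, and -0.42, with the mitochondrial DNA helicase TWNK 2.05-fold lower, POLRMT, the mitochondrial RNA polymerase, at -0.70 and ESRRA nearest to 0 at -0.13. Of all 10258 measured genes 5265 lay below 0. Haematopoietic markers had 1 measured gene of 8, CD68, at 0.91, and the epithelial list 4 of 9 with a median of -0.57, in which KRT18 entered with its brighter probe set (-0.69, against 0.12 on the other). Mesenchymal markers had 12 of 18 and -0.01. Endothelial and muscle markers had 3 measured of 9 and a median of 0.91, from the brighter probe sets of DES (1.23, or 2.35-fold higher) and TTN (0.91) and from MYOG (-0.05). The dimmer probe sets gave -0.38 for DES and 0.02 for TTN. Their part in the members' values was not tested.

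The annotation also names 5 antisense or pseudogene symbols of the family, which are no measure of the carrier genes. Of these SLC25A25-AS1 (-0.31) and SLC25A21-AS1 (-0.16) were measured, and SLC25A5-AS1 (-0.42), SLC25A48-AS1 (0.06) and SLC25A51P4 (-0.01) lay below the level filter.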
